A study of Mus musculus with 24 samples.

Results

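Meis1, Meis2, Meis3, Pbx2, Pbx3, Pknox1 and Pknox2 encode homeodomain transcription factors of the TALE class, and their RNA was followed through both jaws of mice at embryonic day 12.5. The members were taken by gene symbol, 7 of the 18193 genes that the arrays measured with a probe set of 1 symbol. For each, the probe set with the highest mean over the 24 arrays was used, and all 7 were among the 14879 genes tested.

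TALE homeodomain proteins carry an extension of 3 residues in the homeodomain. Pbx proteins bind DNA together with Hox proteins and with Meis or Pknox proteins. Pknox proteins are also called Prep, and Meis and Pknox proteins use the same contact with Pbx. In the embryo these complexes serve as cofactors of Hox proteins in the hindbrain and the posterior pharyngeal arches. They also act in the face, where the jaw mesenchyme in front of the second arch forms without Hox proteins, and loss of MEIS2 in humans is tied to cleft palate.

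The samples fall into 8 groups of 3 arrays, given by genotype, jaw and end. Knockout embryos came from Wnt1-Cre;Tgfbr2 fl/+ parents crossed to Tgfbr2 fl/fl parents, and per the series text they were recognised by cleft palate and a calvarial defect. Controls were littermates, and the sources used here do not give their genotype. Both genotypes carry the background label C57B6. The mandible and the maxilla of each were cut into a distal and a proximal end, which makes 4 regions per genotype. Wnt1-Cre recombines in neural crest cells, the source of most of the facial mesenchyme, so epithelium, skeletal muscle and endothelium of the knockouts keep the receptor gene. A dissected end holds many cell types, and in such bulk RNA fewer cells of a type and less RNA per cell cannot be told apart.

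Values are log2 signals, so a difference of 1 is a doubling, and levels are compared only for the same gene. A gene was called where limma's adjusted p (Benjamini-Hochberg, over all genes tested) lay under 0.05. Nothing in the labels says that the arrays within a group are of different embryos, and p-values measure only the spread between arrays. Several arrays stood apart. Over all genes, 7 of 24 arrays correlated better with the other end of the same jaw and genotype than with their own group, and 4 of them, control maxilla 1 and knockout mandible 1 at both ends, were left out together as an alternative. The first distal array of the knockout mandible, for example, had a mean correlation of 0.33 with its own group and 0.68 with the proximal arrays. Tgfbr2 averaged 12.11 ± 0.40 in knockouts and 11.78 ± 0.29 in controls (SD, n = 12 each), so this check of the label found no lower level in the knockouts (difference 0.34, SE 0.11, limma adjusted p = 0.112). The position of the probe set relative to the deleted part was not used here. Y-linked levels (mean log2 of 3 genes) lay at 4.25 to 4.65 in the 12 knockout arrays. Among the controls they lay at 7.70 to 8.13 in the 4 arrays numbered 2, and at 4.42 to 4.78 in the 8 others. Xist lay at 13.64 to 13.86 in the knockouts, 6.19 to 6.74 in the control arrays numbered 2 and 13.58 to 13.99 in the 8 others. By these levels the control arrays numbered 2 read as male and all other arrays as female, so sex was not balanced between the genotypes.

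**Figure D1:**
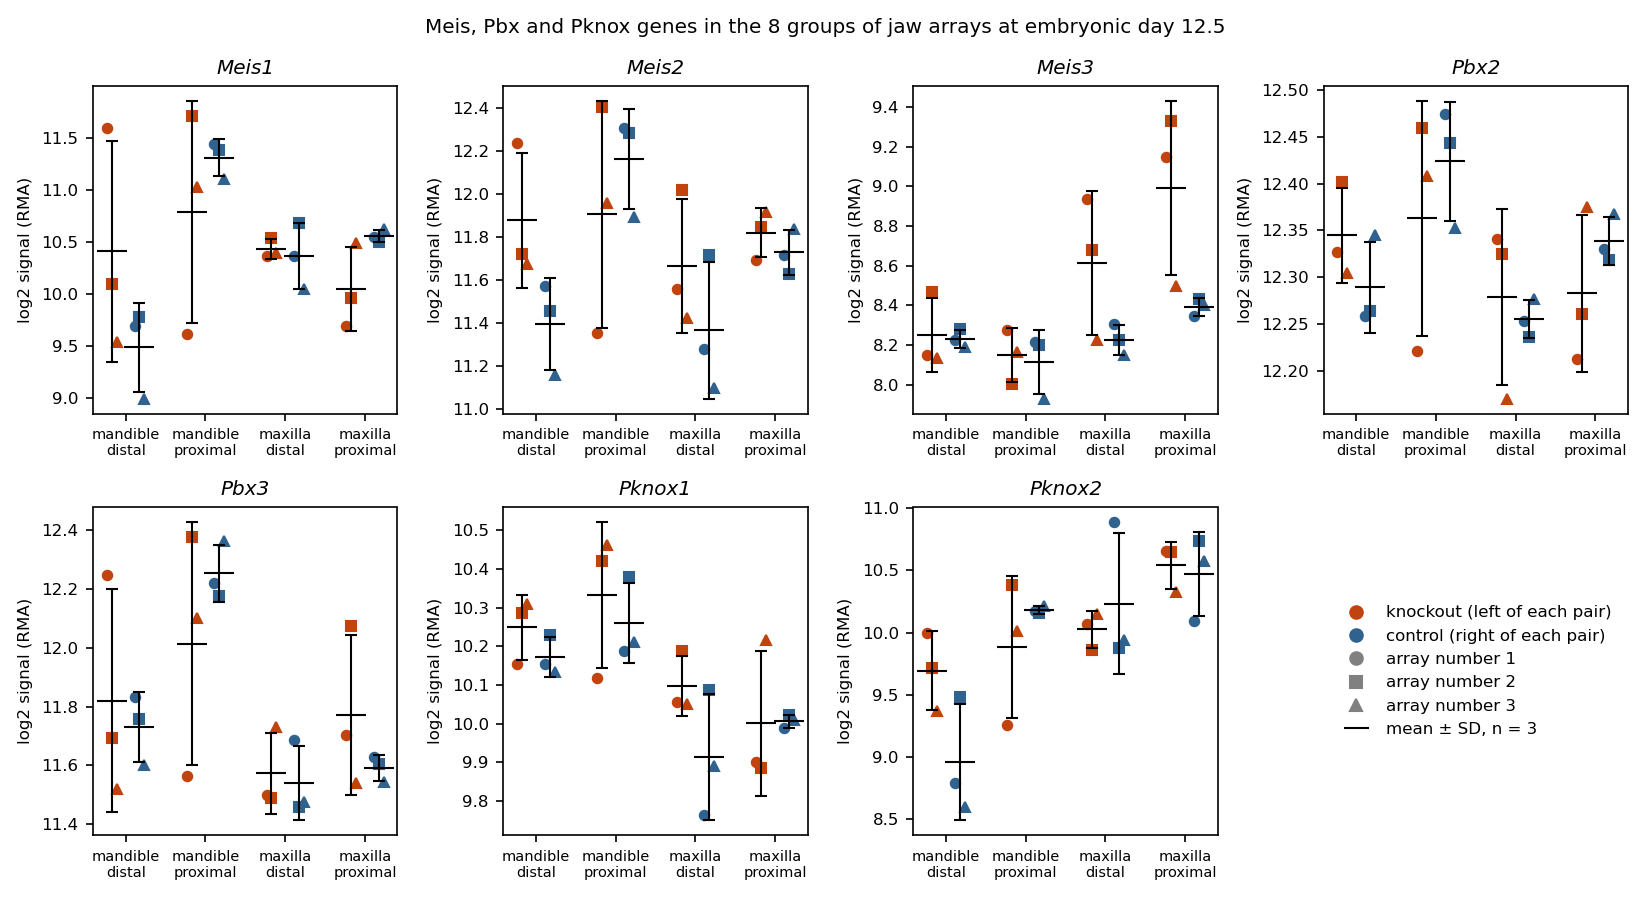
Log2 signal (vertical axis) of each of the 7 genes in every array, by group along the horizontal axis, with a point for each array (its shape gives the array number), a line for the group mean and error bars for the SD (n = 3), knockouts left of controls. The widest spread of group means is that of Meis1 (1.82), and the narrowest that of Pbx2 (0.17).

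The members differed in how far their levels moved between groups. The group means of Meis1 spanned 1.82 and those of Pknox2 spanned 1.58, against a median of 0.345 over all genes tested. Meis3 spanned 0.88, Meis2 0.80, Pbx3 0.71 and Pknox1 0.42. Pbx2 spanned 0.17, less than that median. Group membership accounted for 70.2% of the variance of Pknox2 and 69.0% of that of Meis3, against 51.4% for Meis1, whose knockout mandible arrays were scattered, and a median of 52.2% over all genes.

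Meis1 is best known for its part in blood stem cells and in the proximal part of limbs. Its signals in the mandible's distal end were 11.59, 10.10 and 9.53 in knockouts, against 9.69, 9.78 and 8.99 in controls. At the proximal end they were 9.61, 11.71 and 11.03 in knockouts, against 11.43, 11.38 and 11.10 in controls. The control ends did not overlap, whereas the first knockout mandible array was the highest of its group distally and the lowest of its group proximally. Meis1 in the maxilla's distal end read 10.36, 10.54 and 10.40 in knockouts, against 10.36, 10.68 and 10.05 in controls. Proximally it read 9.69, 9.96 and 10.49 in knockouts, against 10.54, 10.50 and 10.62 in controls. All maxilla arrays therefore lay between the control mandible's distal and proximal arrays except for 1 of them, the first knockout proximal array, which fell within the range of the distal ones. By group mean the control mandible's distal end was the lowest (9.49) and its proximal end the highest (11.31), and every pair of neighbours in the order overlapped.

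Meis2 is expressed in cranial neural crest and is needed there for the skeleton of the face in mice. In the mandible's distal end it had 12.24, 11.72 and 11.67 in knockouts, against 11.57, 11.45 and 11.16 in controls. Proximally it had 11.35, 12.41 and 11.96 in knockouts, against 12.31, 12.29 and 11.89 in controls. The control ends were again apart, and the first knockout mandible array again stood on the far side of its group at both ends. For the maxilla's distal end the values were 11.55, 12.02 and 11.42 in knockouts, against 11.28, 11.72 and 11.10 in controls, and proximally 11.69, 11.84 and 11.92 in knockouts, against 11.72, 11.63 and 11.84 in controls. The highest mean, 12.16, belonged to the control mandible's proximal end as for Meis1, and the lowest, 11.36, to the control maxilla's distal end, with overlap between all neighbours.

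Over the 24 arrays Meis1 and Meis2 had a Pearson correlation of 0.80 (Spearman 0.77), and 0.86 after group means were removed. Without the 4 arrays it was 0.80. It was the highest correlation among the 21 pairs of members, and the arrays share dissections, so it is a description. The bases upstream of both genes are shown because the pair moved together. Each window is the 250 bases before the start given by RefSeq (GRCm38.p6), on the minus strand, written 5′ to 3′, and both windows lie inside the annotated span of their gene. Meis1 is at chr11:18880428-19019651 with its window at chr11:19018970-19019219, and Meis2 is at chr2:115861264-116067537 with its window at chr2:116064620-116064869. Capitals mark CAGAC, an element bound by Smad proteins, the effectors of TGF-beta receptors.
Meis1: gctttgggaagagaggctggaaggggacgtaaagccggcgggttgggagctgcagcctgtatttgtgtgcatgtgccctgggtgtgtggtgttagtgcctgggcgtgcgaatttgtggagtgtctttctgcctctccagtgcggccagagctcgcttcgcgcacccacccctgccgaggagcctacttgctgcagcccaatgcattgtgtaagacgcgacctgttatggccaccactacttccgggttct
Meis2: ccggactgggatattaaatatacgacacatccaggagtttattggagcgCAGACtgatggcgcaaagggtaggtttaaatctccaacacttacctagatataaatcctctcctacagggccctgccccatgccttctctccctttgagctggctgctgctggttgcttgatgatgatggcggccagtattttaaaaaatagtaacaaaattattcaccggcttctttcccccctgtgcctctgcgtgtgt

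On both strands, CAGAC was found once in the Meis2 window, 201 to 197 bases before the start, and not in that of Meis1. It is a short motif, and 42.2% of the 32851 promoter windows of the same length in that table hold it. The Meis and Pknox core TGACAG (in 15.9% of windows), the Pbx with Hox site TGATNNAT (7.68%) and the Pbx with Meis site, TGAT directly followed by TGACAG (0.198%), were in neither window. The retinoic acid receptor repeat, AGGTCA, then NNNNN, then AGGTCA, was in neither (0.00913%). The Pbx with Meis site contains the Meis and Pknox core. The Meis1 window was 59.6% G and C with 13 CG dinucleotides, and the Meis2 window 47.6% with 7, against medians of 52.4% and 6 over all windows. Of the other members, Meis3 and Pbx2 were in the table, and Pbx3, Pknox1 and Pknox2 were not. CAGAC was found 3 times in the Meis3 window and 0 times in that of Pbx2, and the other motifs were in neither.

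Meis3 has been studied mainly in the hindbrain of frog and fish embryos. At the maxilla's distal end it had 8.94, 8.68 and 8.22 in knockouts, against 8.31, 8.22 and 8.15 in controls, and proximally 9.15, 9.33 and 8.50 in knockouts, against 8.34, 8.43 and 8.40 in controls. In the mandible its values ran between 8.01 and 8.47 in knockouts and between 7.93 and 8.28 in controls. The proximal knockout maxilla thus lay wholly above its controls, and both knockout maxilla groups held array 3 well below the others. In the order of group means the knockout maxilla's proximal end came first (8.99), its distal end second (8.61) and the control mandible's proximal end last (8.12), with overlap between all neighbours.

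Pbx2 is broadly expressed in the mouse embryo and Pbx3 is expressed in the nervous system as well as the face. Pbx2 lay between 12.17 and 12.46 in knockouts and between 12.24 and 12.48 in controls over all regions, and all neighbours in its order overlapped. Pbx3 in the mandible's distal end read 12.25, 11.69 and 11.52 in knockouts, against 11.83, 11.76 and 11.60 in controls. At the proximal end it read 11.56, 12.38 and 12.10 in knockouts, against 12.22, 12.18 and 12.36 in controls. The first knockout mandible array stood out here as for Meis1 and Meis2. In the maxilla Pbx3 lay between 11.49 and 12.07 in knockouts and between 11.46 and 11.68 in controls. Its highest group mean was that of the control mandible's proximal end (12.25) and its lowest that of the control maxilla's distal end (11.54), and all neighbours overlapped.

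Pknox1 is needed in early mouse embryos, and Pknox2 is its closest relative. In the mandible Pknox1 lay between 10.12 and 10.46 in knockouts and between 10.13 and 10.38 in controls, and in the maxilla between 9.88 and 10.22 in knockouts and between 9.76 and 10.09 in controls. The 4 mandible groups held the top 4 places in its order of means (10.33 to 10.17) and the maxilla groups the lower ones (10.10 to 9.91). Pknox2 ran the other way. In the mandible's distal end it had 10.00, 9.71 and 9.37 in knockouts, against 8.79, 9.49 and 8.60 in controls, and proximally 9.26, 10.38 and 10.01 in knockouts, against 10.17, 10.16 and 10.22 in controls. For the maxilla's distal end the values were 10.07, 9.86 and 10.15 in knockouts, against 10.89, 9.88 and 9.94 in controls, and proximally 10.65, 10.65 and 10.32 in knockouts, against 10.09, 10.74 and 10.57 in controls. The control mandible's distal end was the lowest group of Pknox2 (8.96 ± 0.47, SD, n = 3), and the top 3 means were those of maxilla groups (10.54 to 10.23). Neighbours overlapped except the control mandible's proximal end and the knockout maxilla's distal end, whose gap in means was 0.16. For Pknox1 the knockout maxilla's distal end and the control maxilla's proximal end did not overlap, with a gap of 0.09.

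**Figure D2:**
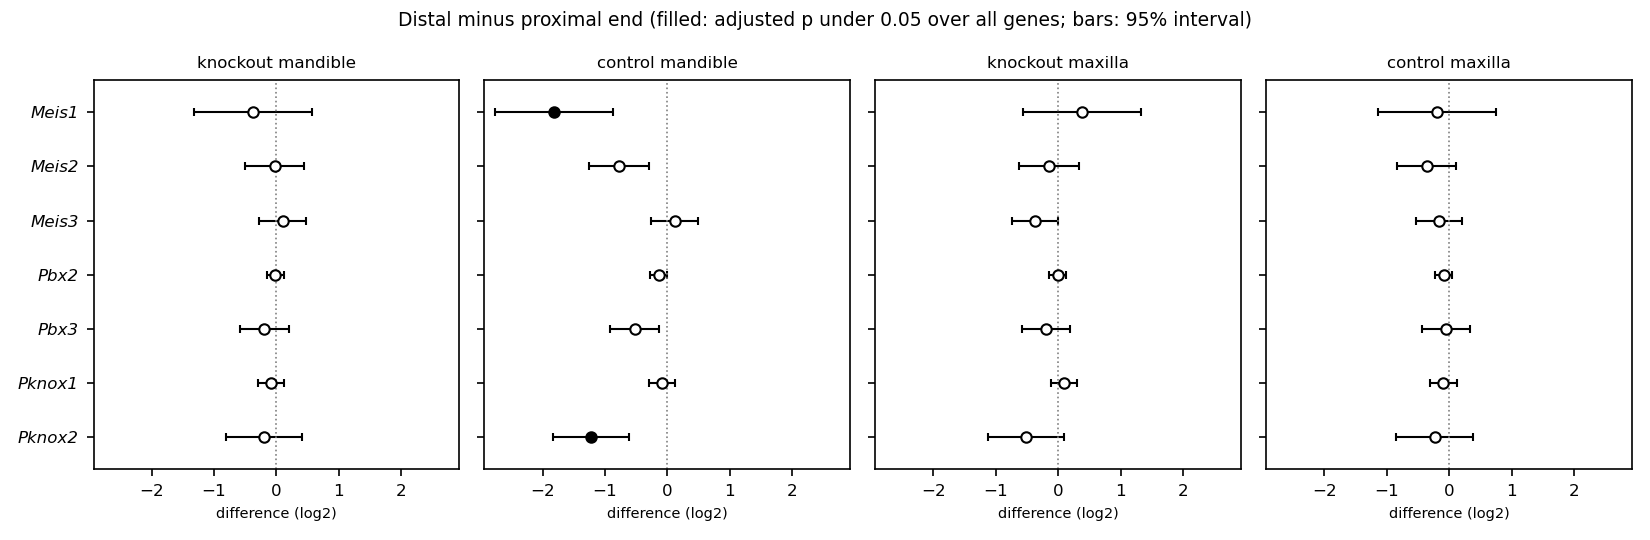
Distal minus proximal difference (log2, horizontal axis) of each gene in the 4 combinations of genotype and jaw, with 95% intervals; filled points were called. In the control mandible Meis1 (-1.82) and Pknox2 (-1.22) were called, and in the other panels no member was.

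The clearest differences within a jaw were those between the ends of the control mandible, where Meis1 and Pknox2 were lower distally. Meis1 was 3.53-fold lower in the distal than in the proximal end (difference -1.82, SE 0.45, limma adjusted p = 0.0338), and Pknox2 2.33-fold lower (-1.22, SE 0.29, limma adjusted p = 0.0277). These were 2 of 7 members, where 3.45% of all genes tested were called. Meis2 (-0.77, SE 0.23, limma adjusted p = 0.0720) and Pbx3 (-0.52, SE 0.18, limma adjusted p = 0.128) had the same sign without passing, and the median over the members was -0.52, against -0.02 over all genes. Pbx2 (-0.13), Pknox1 (-0.09) and Meis3 (0.12) differed by less than 0.15, none of them called. The array numbers paired these ends, and with the number as a replicate block in a fit of these groups alone, limma called 4 members, Meis1 (adjusted p = 0.00304), Meis2 (0.00495), Pbx3 (0.0334) and Pknox2 (0.0244), with 12.8% of all genes called. The same 4 members were called in that fit without the block (9.67% of genes). Over all arrays the number as a fixed block left 2 called, and as a random block within genotype 3, with Meis2 added (limma adjusted p = 0.042).

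Both calls were lost in some fits with fewer arrays. Leaving out distal array 1 or 3, or any 1 of the proximal arrays, ended them (limma adjusted p up to 0.174 for Meis1 and 0.159 for Pknox2), while the differences stayed between -1.97 and -1.57 for Meis1 and between -1.49 and -1.04 for Pknox2. Without the 4 control arrays numbered 2, no member was called there. The share of all genes called is not given for these fits. The lost calls therefore cannot be told apart from a change over all genes. Without the 4 arrays that stood apart, which lie in other groups, limma called Meis1 (adjusted p = 0.00084), Meis2 (0.0255), Pbx3 (0.0190) and Pknox2 (0.00138), with 6.62% of all genes called. The Meis1 difference stayed at -1.82, and its SE fell to 0.26. The 4 arrays were picked from the same values for lying apart from their groups. A smaller spread without them follows from that choice.

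The second Meis1 probe set gave -0.93 (limma adjusted p = 0.222) and the second Pknox2 probe set -0.38 (0.158). Meis1 probe set 3 was above the filter level in 1 of 24 arrays. Of the other Meis2 probe sets, 2 gave -0.82 and -0.61 and 1 gave 0.22, this last one having a correlation of 0.04 with the one used. The other Pbx3 probe set gave -0.61.

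Marker genes of several cell types differed between the same ends. The mean log2 level of the neuron markers was 8.04 to 8.56 distally, against 9.72 to 10.49 proximally, with 7 of 12 markers called lower, and 2 of the 12 below the filter level in every distal array. Glia and Schwann cell markers lay at 7.77 to 8.07 distally, against 9.60 to 9.82 proximally, with 5 of 5 tested markers lower. Skeletal muscle markers lay at 6.49 to 10.19 distally, against 10.90 to 11.28 proximally, with 4 of 14 lower. Facial mesenchyme markers went the other way, at 12.09 to 12.14 distally, against 11.37 to 11.53 proximally, with 1 of 7 higher. Epithelium markers lay at 10.02 to 10.37 distally, against 8.48 to 9.58 proximally, with 0 of 10 called. Over the 24 arrays Pknox2 had a Pearson correlation of 0.74 with the glia markers (0.79 within groups), 0.71 with the neuron markers (0.48 within groups) and -0.81 with the mesenchyme markers (-0.71 within groups). Meis1 had weaker ones, 0.43 with the glia markers (0.34 within groups), 0.08 with the neuron markers (-0.04 within groups) and -0.35 with the mesenchyme markers (-0.23 within groups). All these values come from the same arrays. Their part in the differences of Meis1 and Pknox2 was not tested.

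**Figure D3:**
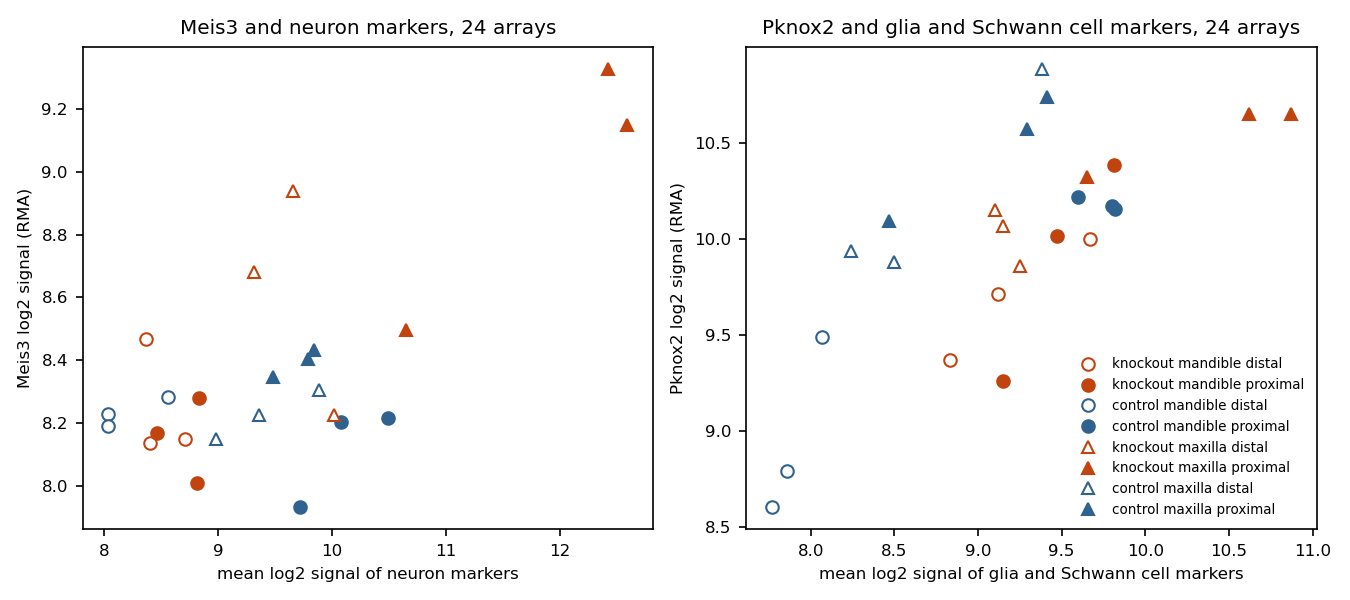
Log2 signal of members (vertical axes) against the mean log2 level of marker genes (horizontal axes), 1 point per array (n = 24), by genotype (colour), jaw (shape) and end (filled for proximal). Arrays with more glia and Schwann cell marker signal tended to have more Pknox2 (Pearson correlation 0.74), and those with more neuron marker signal more Meis3 (0.70). In the neuron panel the 3 knockout maxilla proximal arrays lie farthest right.

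Hox proteins are the partners that Pbx and Meis proteins are best known for. Of the 8 tested Hox genes of paralogue groups 1 to 4, 2 were called lower in the control mandible's distal end and 0 higher, with a median of -1.43. Hoxd1, of paralogue group 1, was lower (-5.20, SE 1.03, limma adjusted p = 0.0135), and it lay below the filter level in every distal array, so the difference is against background. Hoxa2, the selector gene of the second arch, was lower (-4.81, SE 1.09, limma adjusted p = 0.0228). Its distal arrays lay between 4.27 and 5.98 with a mean of 4.95, under the filter level (5.85 to 5.93), so this difference too is largely against background. In the retinoic acid pathway 2 of 13 tested genes were lower and 0 higher (median -0.25). These were Stra6, the receptor for retinol-binding protein (-1.79, limma adjusted p = 0.00601), and Cyp26a1, which breaks down retinoic acid (-1.64, limma adjusted p = 0.0136). Of 10 other TALE genes 0 were called (median -0.26). Of 10 face factors tied to Pbx or Meis, Snai1, a regulator of epithelial-mesenchymal change, was higher (0.93, limma adjusted p = 0.0469) and 0 were lower (median 0.07).

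In the other 3 comparisons of ends no member was called. In the control maxilla 0 of 7 members and 0% of genes were called, with all 7 differences negative, between -0.36 and -0.05, and 0 members and 103 genes at an unadjusted p under 0.05. In the knockout mandible 0 members and 0% of genes were called, with Meis1 at -0.38 (SE 0.45), and at an unadjusted p under 0.05 there were 0 members and 72 genes. Without the 4 arrays that stood apart, Meis1 there was -1.55 (SE 0.31, limma adjusted p = 0.0887), Pknox2 -0.66 (0.459), Pbx3 -0.63 (0.158) and Meis2 -0.49 (0.800), with 0.108% of genes called. The differences in the knockout mandible thus depended on these arrays, which were picked from the same values for their likeness to the other end. Larger differences between the ends without them are therefore no independent evidence. In the knockout maxilla 0 members were called, against 6.16% of genes, with Pknox2 at -0.52 and Meis3 at -0.38, and at an unadjusted p under 0.05 there were 1 member, Meis3, and 4048 genes.

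The difference of the end effect itself was tested. Between the control jaws, mandible minus maxilla, it was -1.63 for Meis1 (SE 0.64) and -0.99 for Pknox2 (SE 0.41), and limma called 0 members and 0% of genes, while at an unadjusted p under 0.05 there were 2 members and 920 genes. Restricted to the control groups, limma called Meis1 (adjusted p = 0.0219), with 1.63% of genes called. Between knockout and control mandible, the difference was 1.44 for Meis1 (SE 0.64), 1.03 for Pknox2 (SE 0.41) and 0.74 for Meis2 (SE 0.32), with 0 members and 0% of genes called, and 3 members and 774 genes at an unadjusted p under 0.05. Without the 4 arrays these were 0.27, 0.57 and 0.28. For the maxilla 0 members were called, against 0.0403% of genes, and at an unadjusted p under 0.05 there were 0 members and 1501 genes.

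**Figure D4:**
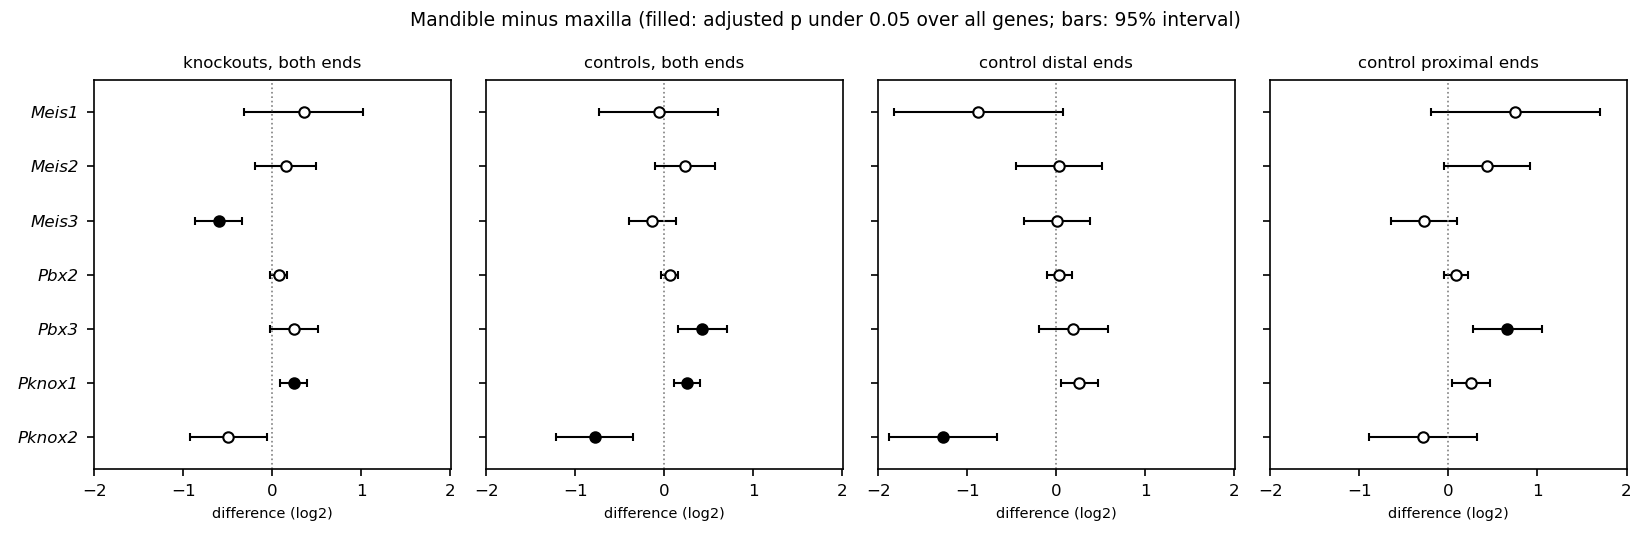
Mandible minus maxilla difference (log2, horizontal axis) of each gene in knockouts and in controls over both ends, and at each end of the controls, with 95% intervals; filled points were called. Pknox2 is lower in the control mandible (-0.78) and Pbx3 (0.43) and Pknox1 (0.26) are higher.

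Between the jaws of the controls the Pknox genes ran in opposite directions. As the mean over both ends, Pknox2 was lower in the mandible (-0.78, SE 0.21, limma adjusted p = 0.00791), Pknox1 was higher (0.26, SE 0.07, limma adjusted p = 0.0114) and so was Pbx3 (0.43, SE 0.13, limma adjusted p = 0.0195). That was 3 of 7 members, where 30.9% of all genes tested were called, and the median over members was 0.06, against 0.02 over all genes. Meis2 (0.23), Pbx2 (0.06), Meis1 (-0.06) and Meis3 (-0.14) did not pass.

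At the distal ends Pknox2 alone of the members was called (-1.27, SE 0.29, limma adjusted p = 0.00809), 1 of 7 where 14% of genes were called. The call was lost without the first control maxilla distal array (-0.95, limma adjusted p = 0.0504) and was -0.95 (limma adjusted p = 0.0106) without the 4 arrays. It was also lost with the second Pknox2 probe set, which averaged 6.44 in the control mandible's distal end and 6.45 in the control maxilla's. At the proximal ends Pbx3 was called (0.66, SE 0.18, limma adjusted p = 0.0228), 1 of 7 where 14.5% of genes were called, and Meis1, whose control groups did not overlap there, was not (0.75, SE 0.45, limma adjusted p = 0.285). The Pbx3 call was lost without any 1 of the control mandible proximal arrays, or without control maxilla proximal array 1 or 3 (limma adjusted p up to 0.0815), while its difference stayed between 0.61 and 0.70 with any 1 array left out. The array numbers paired the proximal ends too. In a fit of these 2 groups alone limma called Meis1 (adjusted p = 0.00422), Pbx3 (0.00179) and Pknox1 (0.0492), with 17.2% of genes called. With the number as a replicate block in that fit, Meis1 (limma adjusted p = 0.0183) and Pbx3 (0.0122) were called and Pknox1 was not (0.0759), with 13.7% of genes called. Over all arrays, with the number as a fixed or random block, Meis1 was not called (limma adjusted p = 0.279 and 0.247).

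The 2 other Pknox1 probe sets gave larger differences over the control jaws, 0.63 (limma adjusted p = 3.85e-05) and 0.93 (limma adjusted p = 6.3e-05). The other Pbx3 probe set gave 0.61 (limma adjusted p = 0.0061). The second Pknox2 probe set gave 0.09 (limma adjusted p = 0.523), so the lower level in the mandible was seen with 1 of 2 Pknox2 probe sets. Without the 4 control arrays numbered 2, Pknox2 alone remained called (-0.93, limma adjusted p = 0.0194), with Pbx3 at an adjusted p of 0.131 and Pknox1 at 0.0579. For that fit the share of all genes called is not given.

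In the knockouts Meis3 was lower in the mandible (-0.60, SE 0.13, limma adjusted p = 0.00245) and Pknox1 was higher (0.24, SE 0.07, limma adjusted p = 0.0196), 2 of 7 members where 25.4% of genes were called. Pknox2 (-0.49, SE 0.21) and Pbx3 (0.25, SE 0.13) kept the signs they had in controls without passing. At the proximal ends Meis3 averaged 8.15 in the knockout mandible and 8.99 in the knockout maxilla, where 2 arrays had neuron markers at 12.59 and 12.42, above all other arrays. Without these 2 arrays, which leaves 1 array in that group, the Meis3 difference between the jaws was -0.35. Pknox1 was lost without knockout mandible proximal array 3 or knockout maxilla proximal array 2 (limma adjusted p up to 0.0535).

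Markers again differed between the jaws. Over both control ends 12 of 14 skeletal muscle markers were called higher in the mandible and 1 lower, 6 of 10 epithelium markers were lower, and 5 of 8 eye and forebrain markers were lower, where 30.9% of all genes were called. Of the neuron markers 3 of 12 were higher and 5 lower, and of the glia markers 2 of 5 were lower. At the distal ends, where Pknox2 was called, 5 of 12 neuron and 2 of 5 glia markers were lower and 0 higher. There the neuron markers lay at 8.04 to 8.56 in the control mandible, against 8.98 to 9.89 in the control maxilla, and the glia markers at 7.77 to 8.07 in the mandible, against 8.24 to 9.38 in the maxilla. The eye and forebrain markers had mean levels of 5.96 to 6.57 in control mandible arrays, against 8.48 to 8.73 in control maxilla arrays. Of the 8 genes, 6 lay below the filter level in every control mandible distal array and 3 in every proximal one. Pknox1 had a Pearson correlation of -0.68 with them over all 24 arrays, but -0.08 within groups. With the neuron, epithelium and facial mesenchyme markers Pknox1 had -0.48, 0.02 and 0.33, and -0.60, 0.53 and 0.52 within groups. With the muscle markers it had 0.51 (-0.19 within groups). Pbx3 had a correlation of 0.63 with the muscle markers (0.20 within groups) and -0.64 with the epithelium markers (-0.54 within groups). Their part in the differences between the jaws was not tested.

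Lists of related genes were counted between the control jaws, where 30.9% of all genes were called. Of the 10 other TALE genes tested 4 were higher in the mandible and 2 lower (median 0.04). Irx2 (2.18, limma adjusted p = 0.000753), Irx1 (1.73, 0.015), Irx4 (1.22, 0.00385) and Mkx (0.74, 0.00145) were higher, and Irx3 (-0.61, 0.00136) and Irx5 (-0.53, 0.00182) were lower. The Irx genes, which belong to the Iroquois family, thus went both ways, and Mkx is a regulator of tendon. Of the 8 Hox genes 4 were higher and 0 lower (median 0.84). Hoxa2 was at 3.00, against background in the maxilla, Hoxd1 at 2.44, Hoxb2 at 1.46 and Hoxa3 at 0.37. Hoxd1 averaged 5.32 in the control maxilla, under the filter level, so its difference too is largely against background. Among the face factors 5 of 10 were higher and 2 lower (median 0.52). Hand2, which defines the ventral mandibular arch, was 7.05 higher (log2, limma adjusted p = 1.29e-07), Meox1 1.91 and Osr1 1.49 higher, and Six2 was lower (-1.37, limma adjusted p = 8.04e-06). Hand2 averaged 5.74 in the control maxilla, under the filter level (5.85 to 5.93), so its difference is largely against background. Of the retinoic acid genes 2 of 13 were higher and 2 lower (median -0.04), a share near that of all genes, with Aldh1a3, which makes retinoic acid, at -2.71 (limma adjusted p = 0.000902) and Stra6 at -1.28, and Cyp26a1 at 0.83 and Rdh10, which oxidises retinol, at 0.29.

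In the knockouts the same lists gave 3 TALE genes higher and 1 lower (median 0.24), 3 Hox genes higher and 0 lower (median 0.70), 5 face factors higher and 1 lower (median 0.54), and 2 retinoic acid genes higher and 2 lower (median -0.05), against 0.03 over all genes. Of all genes tested 25.4% were called there. Hand2 (5.01), Hoxa2 (3.30), Hoxc4 (1.73), Hoxb2 (1.62), Meox1 (1.53), Osr1 (1.52) and Irx2 (1.18) were called higher in the mandible, among others. Aldh1a1 (-1.72), another enzyme that makes retinoic acid, lay below the filter level in every knockout mandible array. At the control distal ends 14% of all genes were called. There 2 TALE genes were higher and 2 lower, 0 Hox genes were called, 4 face factors were higher and 1 lower, and 2 retinoic acid genes were lower. At the control proximal ends, where Pbx3 and 14.5% of all genes were called, 2 TALE genes were higher, and 5 face factors were higher and 2 lower. Of the Hox genes 5 of 8 were higher, with Hoxd1 at 4.86 and Hoxa2 at 5.37. Hoxa2 was against background in every maxilla array, and Hoxd1 averaged 5.49 in the maxilla, under the filter level. The 2 retinoic acid genes that were higher were Cyp26a1 (1.56) and Rdh10 (0.56).

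**Figure D5:**
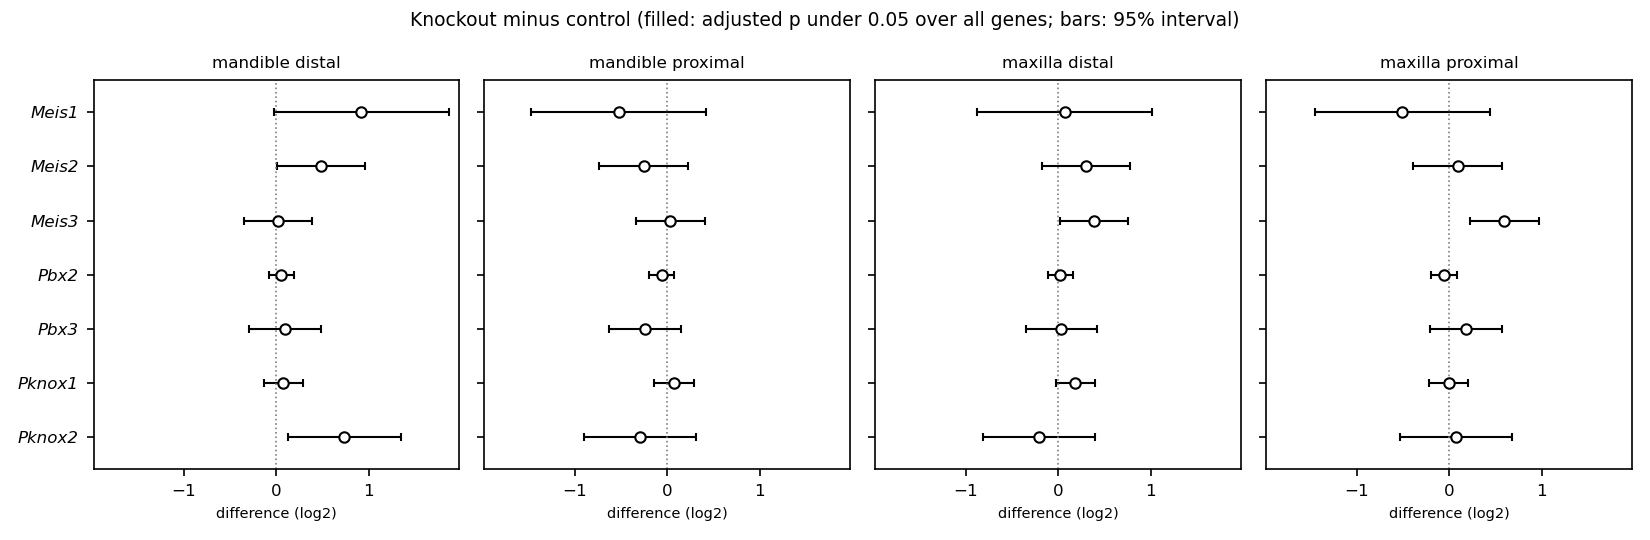
Knockout minus control difference (log2, horizontal axis) of each gene in the 4 regions, with 95% intervals. No member was called in any region, and Meis3 in the maxilla's proximal end (0.60) came nearest.

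Between knockouts and controls no member was called in the fit of group means to all arrays. As the mean over the 4 regions 0 of 7 members were called, where 0.47% of genes were, and at an unadjusted p under 0.05 there were 1 member, Meis3, and 3459 genes. Meis3 averaged 8.50 in knockouts and 8.24 in controls (difference 0.26, 95% interval 0.07 to 0.45, SE 0.09, limma adjusted p = 0.111). The other members differed little in that mean, with Meis2 at 0.15 (95% interval -0.09 to 0.40) and Meis1 at -0.01 (-0.48 to 0.46).

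In the maxilla's proximal end 0 members were called, against 5.77% of genes. Meis3 differed by 0.60 there (SE 0.18, 95% interval 0.23 to 0.97, limma adjusted p = 0.0526), and it was called under 8 of 41 other settings, with cyclic loess (limma adjusted p = 0.0479) among them. In the mean over the 4 regions it was called under 4 of 39. In the maxilla's proximal end, at an unadjusted p under 0.05 there were 1 member and 3861 genes. The knockout arrays had neuron markers at 12.59, 12.42 and 10.65, against 9.48, 9.84 and 9.79 in controls, with 7 of 12 higher. The knockout array with the lowest neuron markers, array 3, also had the lowest Meis3 of its group, 8.50. It was lowest in glia (9.65) and muscle markers (8.74) too. Glia markers had 3 of 5 and muscle markers 4 of 14 called higher, and epithelium markers 6 of 10 lower. Over the 24 arrays Meis3 had a Pearson correlation of 0.70 with the neuron markers (Spearman 0.43, and 0.52 within groups). It was 0.48 with the glia markers (0.41 within groups), 0.07 with the muscle markers (0.61 within groups) and -0.26 with the epithelium markers (-0.37 within groups). The control mandible's proximal end had neuron markers at 9.72 to 10.49 but the lowest group mean of Meis3 (8.12). Without the 2 arrays with the highest neuron markers only array 3 was left in the knockout group, and the Meis3 difference was 0.10. Without array 3 the difference was 0.85 (limma adjusted p = 0.000803). The part of any of these markers in the Meis3 difference was not tested.

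In the mandible's distal end 0 members were called, where 0.134% of genes were, and Pknox2 (0.74, SE 0.29, limma adjusted p = 0.295) and Meis2 (0.48, SE 0.23, limma adjusted p = 0.395) had an unadjusted p under 0.05, as did 1881 genes. Meis1 was at 0.92 (SE 0.45, limma adjusted p = 0.409). Without the 4 arrays Pknox2 was at 0.58, Meis2 at 0.30 and Meis1 at 0.33. In the mandible's proximal end 0 members were called, against 0.0538% of genes, with Meis1 at -0.52, and 0.06 without the 4 arrays. In the maxilla's distal end 0 members were called, against 0.0202% of genes, with Meis3 at 0.39 (SE 0.18, limma adjusted p = 1). An unadjusted p under 0.05 was found for 0 members and 425 genes in the mandible's proximal end, and for 1 member, Meis3, and 395 genes in the maxilla's distal end. The knockout effect differed between the jaws in 0 members (0.0336% of genes), with Meis3 at -0.47 (SE 0.18, limma adjusted p = 0.636), and between the ends in 0 members (0.00672% of genes), with Meis1 at 1.01 (SE 0.45, limma adjusted p = 1). Each had an unadjusted p under 0.05, together with 985 and 639 genes.

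Apart from Meis1 and Meis2, pairs of members followed each other less closely. Pbx3 had a Pearson correlation of 0.68 with Meis2 and 0.66 with Meis1, and 0.20 with Pknox2, which was 0.69 within groups. Pbx2 had 0.68 with Meis2 and 0.63 with Pknox1. Meis3 had correlations between -0.47 and -0.06 with the others, except 0.34 with Pknox2, and Pknox1 and Pknox2 had -0.35.

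Outside the members, the genes most like each over the 24 arrays were taken by Pearson correlation, 3 for each. Nearest to Pknox2 were Pde1c, a phosphodiesterase (0.95), Zfp667, a zinc finger gene (0.95), and Dscaml1, an adhesion molecule of neurons (0.93). Nearest to Pbx3 were Gbx2, a homeobox gene of the midbrain and hindbrain boundary (0.90, Spearman 0.60), 3110099E03Rik (0.90, Spearman 0.62) and Hoxa2 (0.88, Spearman 0.72). Nearest to Meis1 were 8430419K02Rik (0.91), C1galt1, a glycosyltransferase (0.85), and Dcaf8, a substrate receptor of a ubiquitin ligase (0.84). For Meis2 they were Efnb3, an ephrin (0.86), Gdf5, a growth factor of joints (0.84), and Sim2, a transcription factor of the bHLH class (0.82).

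For Meis3 the nearest genes were Trp53i11 (0.90), Ackr1, a chemokine receptor without signalling (0.90, Spearman 0.65), and Mapk8, a stress-activated kinase (0.88). Pknox1 and Pbx2, the members with the smallest movements, shared Dvl2, a transducer of Wnt signals, at 0.86 and 0.75. Pknox1 also had Nelfcd, a subunit of a factor that pauses RNA polymerase (0.88), and Pdcd7 (0.86), and Pbx2 had Haus8, a spindle protein (0.78), and Tsen54, a subunit of the tRNA splicing nuclease (0.75). The highest values over 24 arrays were picked from all genes tested, and the arrays share dissections.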

How the data were processed

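Biotin-labelled cRNA of the 8 groups was measured on single-colour arrays. The values the authors deposited are log2 signals from RMA, as the submitters' processing notes name it, with the version not given in the sources used. Array medians lay between 7.26 and 7.38 and no value was missing. The number of arrays, 3 in each group, limits the precision. No 2 arrays were copies (smallest root mean square difference 0.196).

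Of 45101 probe sets, 34945 had 1 gene symbol in the platform annotation, updated through Entrez numbers, 932 had several, 9160 none and 64 were controls. The 18193 genes were each represented by the probe set with the highest mean, and 14879 lay above the 30th percentile of an array (5.85 to 5.93) in at least 3 arrays. The members had 18 probe sets. Limma 3.58.1 in R 4.3.3 fitted the 8 group means to all 24 arrays (16 residual degrees of freedom), with its moderated two-sided test and Benjamini-Hochberg adjustment over all genes in each of 18 comparisons. Differences are first minus second named, in the order knockout minus control, mandible minus maxilla and distal minus proximal. The fit was tested on simulated data.

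The members and lists were chosen with earlier results of these data known. The text names all 7 members in every comparison where they were called, the 3 most correlated genes of each, up to 4 called genes of each other list in comparisons with a called member, and Tgfbr2. The lists held other TALE genes, Hox genes of paralogue groups 1 to 4, face factors tied to Pbx or Meis, retinoic acid genes and 9 sets of cell markers. A marker level is the mean log2 signal of a list's measured genes.

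To see whether array numbers pair groups, the deviations of same-numbered arrays from their group means were correlated. All 3 correlations were over 0.1 for the ends of the control mandible (0.30 to 0.42), the control proximal ends of the jaws (0.12 to 0.36) and the genotypes in the maxilla's distal end (0.11 to 0.21), and not for the other pairs of groups. The pairing comes from the data, not the labels. Alternatives were the scaling, the filter, the probe set, the prior, array weights, the groups in the fit, replicate blocks and the arrays kept. The replicate block within the groups compared, and leaving out 2 knockout maxilla arrays, were chosen after seeing the data.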

Additional observations from a re-analysis of the deposited data

How the results depend on the processing

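Counts of members called were recomputed under each alternative. The share of all genes called changed between settings as well and is given only for some of them, here and above. Where it is not given, a changed count of members cannot be told apart from a change over all genes. With 1 array left out at a time they ranged from 0 to 1 for knockout against control over the 4 regions, in the maxilla's proximal end and in the difference of that effect between jaws, from 3 to 3 for the control jaws, from 1 to 3 for the knockout jaws, from 0 to 2 for the control distal ends, from 0 to 1 for the control proximal ends, from 0 to 3 for the ends of the control mandible and from 0 to 1 for those of the knockout maxilla. They stayed at 0 in the other comparisons.

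In the settings with probe set 2 or 3, a member without that probe set kept the one used. Pknox2 thus kept it for probe set 3, and Meis3 for both. The ends of the control mandible (2 called) gave 1 with the mean of all probe sets or probe set 3 of each member that has one, and 0 with probe set 2. They gave 5 with array weights, 4 with only the groups compared (with or without the replicate block), 4 without the 4 arrays that stood apart and 0 without the control arrays numbered 2. The control proximal ends (1) gave 2 with equal array medians, the mean of probe sets, probe set 2 or 3, the number as a fixed block over all arrays and the replicate block within the groups compared, 3 with only these groups, 7 with array weights and 0 without the control arrays numbered 2. The control distal ends (1) gave 2 with the mean of probe sets, probe set 3, the fixed block and the random block, and 0 with only the groups compared. The control jaws (3) gave 1 without the control arrays numbered 2. The knockout jaws (2) gave 1 with only the groups compared. Without the 2 knockout maxilla arrays highest in neuron markers, 1 array was left in the proximal group, so no count is given.

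Where 0 were called, Meis3 was the 1 member called between genotypes over the 4 regions with array weights (19.5% of genes called) and the fixed block (7.41%). In the maxilla's proximal end 1 member was called with cyclic loess, the filter at the 50th percentile, array weights, the fixed block and the random block. Array weights called 1 in the knockout maxilla's ends and in the difference of the knockout effect between jaws. The difference of the end effect between control jaws gave 1 with array weights and with only the groups compared, with or without the replicate block. Pknox2 between the control jaws turned to 0.092 with its second probe set. The cause was not tested. Array weights raised the share of all genes called as well, for example to 40.3% between the control proximal ends. The consensus correlation of the random block was 0.158, and with it the ends of the control mandible gave 3, with Meis2 added. In the control distal ends, whose numbers did not pair, the replicate block within the groups compared called Meis1 in place of Pknox2. In the paired maxilla's distal end between genotypes no block changed the count of 0. Signals near the filter level, such as those of Hoxd1 distally, limit differences from below.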

Other observations

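Between the genotypes, the lists of related genes held few calls, and the genes below were chosen after their values were seen. Over the 4 regions 0.47% of all genes were called. There 1 of 8 tested Hox genes of paralogue groups 1 to 4 was called higher in knockouts, Hoxd1 (2.51, SE 0.52, limma adjusted p = 0.0347). Called were 0 of 10 other TALE genes, 0 of 10 face factors and 0 of 13 retinoic acid genes. Hoxd1 averaged 9.05 in knockouts, between 5.63 and 10.81, and 6.53 in controls, between 4.26 and 10.51, so the arrays of both genotypes spanned much of the same range.

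At the maxilla's proximal end 5.77% of all genes were called. Of the lists, 1 of 8 Hox, 1 of 10 other TALE, 1 of 13 retinoic acid genes and 0 of 10 face factors were. Hoxd1 was also higher in knockouts there (3.98, SE 1.03, limma adjusted p = 0.0333), with arrays between 7.83 and 10.81 against 4.26 to 6.97 in controls. The control mean was 5.49, under the filter level (5.85 to 5.93), so this difference is largely against background. Tgif1, a TALE repressor that binds Smad proteins, was lower in knockouts (-0.45, SE 0.13, limma adjusted p = 0.0455), with arrays between 9.79 and 10.31 against 10.52 to 10.53. Crabp2, which carries retinoic acid to its receptor, was lower there too (-0.50, SE 0.13, limma adjusted p = 0.0338), with arrays between 12.41 and 13.00 against 13.08 to 13.18. It was higher distally than proximally in the knockout maxilla (0.49, SE 0.13, limma adjusted p = 0.0385). Between those ends 1 of 13 retinoic acid genes and 6.16% of all genes were called. The knockout arrays of the proximal end are those with the neuron markers at 12.59, 12.42 and 10.65. The part of these markers in the differences of Hoxd1, Tgif1 and Crabp2 was not tested.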
